A study of Mus musculus with 9 samples.

Results

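The genes described here were 10 genes of fatty acid uptake and of caveolae, read in nuclei of mouse epididymal adipose tissue (epiAT): Lpl, Cd36, Slc27a1, Acsl1, Fabp4 and Fabp5 for uptake, and Cav1, Cav2, Cavin1 and Cavin2 for caveolae. They were found by symbol in the gene lists of the count matrices, and all 10 were present among 32285 genes. Single-nucleus RNA-seq (snRNA-seq) counts unique molecular identifiers (UMIs), 1 for each captured transcript, in each nucleus. Each of the 9 diet groups was 1 library made from a pool of 5 male C57BL/6J mice. The chow libraries were C (18 weeks old), CC (26 weeks) and CCC (39 weeks). The high-fat diet (HFD) libraries were H, after 12 weeks of HFD at 18 weeks of age, and HH, after 25 weeks of HFD at 31 weeks of age. The weight loss (WL) libraries were HC, with 12 weeks of HFD and then 8 weeks of chow (26 weeks old), and HHC, with 25 weeks of HFD and then 8 weeks of chow (39 weeks old). In CCH, mice on chow until 26 weeks received HFD for 4 weeks, and in HCH, mice with 12 weeks of HFD and 8 weeks of chow received HFD again for 4 weeks. Both were 30 weeks old. By the methods of the study, the control arm first ate a low-fat chow and both arms ate a standard chow during WL, so C and the older chow libraries also differed in chow. The descriptions carry the prefix S075 for C, H, HH, CCH and HCH and S019 for CC, CCC, HC and HHC, and what the prefix stands for is not given in the sources used here. HH and its nearest control CC differ in prefix and in age, so C was used as a further control for HH. A group of 1 pool has no replicate, and the spread between mice inside a pool was not measured.

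The matrices held 91687 barcodes, of which 76356 passed the filters, and 41813 nuclei were given a cell class by marker genes that include none of the 10 genes. The share of nuclei given a class was lowest in CCC (43.8%) and highest in CCH (70.3%), and 1052 barcode sequences were found in more than 1 library. Gating markers were counted when detected in at least 10% of the nuclei of their class, and 2-fold more often there than in other classes. They numbered 11 of 12 for adipocyte-like, 12 of 12 for endothelial-like, 11 of 12 for macrophage-like and 9 of 12 for progenitor-like nuclei. The nuclei were sorted by these same markers, so the counts are no independent check. Adipocyte-like nuclei numbered from 192 (H) to 2528 (C). The UMIs of a class were summed in each library and are given as CPM, their number scaled to 1000000 UMIs of that class, with exact Poisson intervals that cover counting error only. CPM sets 1 gene against itself in other libraries or classes and does not rank genes against each other.

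Fat arrives in adipose tissue as triglyceride in lipoproteins. Lipoprotein lipase, encoded by Lpl, is secreted by the cells around capillaries and releases fatty acids at the vessel wall. The fatty acids pass into cells with the help of the membrane receptor CD36 and the transport protein encoded by Slc27a1, are coupled to coenzyme A by synthetases such as Acsl1, and are carried in the cytosol by the binding proteins FABP4 and FABP5. Caveolae are small pits of the plasma membrane, abundant in adipocytes and endothelial cells, built from caveolins (Cav1, Cav2) and coated by cavins (Cavin1, Cavin2). CAV1 and Cavin1 are needed to form them in fat tissue.

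In GRCm38, Fabp4 (chr3:10204088-10208576, minus strand) and Fabp5 (chr3:10012548-10016607, plus strand) lie on the same chromosome and are the shortest of the 10 genes, at 4.49 and 4.06 kb. Cav2 (chr6:17281185-17289115) and Cav1 (chr6:17306335-17341452) lie on the plus strand with 17.2 kb between the end of Cav2 and the start of Cav1. Cd36 (chr5:17781690-17888801, minus strand) is the longest, at 107 kb. Lpl (chr8:68880491-68907448), Slc27a1 (chr8:71568882-71587302) and Acsl1 (chr8:46471037-46536051) share a chromosome, Cavin1 lies at chr11:100956733-100970887 and Cavin2 at chr1:51289126-51302960. All 10 are protein-coding genes.

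RefSeq promoter windows (GRCm38.p6, 250 bases before to 50 bases after a start) were at hand for 7 of the 10 genes in 12 entries. Lpl, Fabp4 and Fabp5 had none. The windows of Cd36 and of the neighbouring caveolin genes are printed, for Cav1 the first of its 2 entries, since the rise of Cd36 in macrophage-like nuclei under HFD was called in 16 of 16 alternatives, and since Cav1 and Cav2 adjoin and only Cav2 passed under HFD in adipocyte-like nuclei. Whether the 2 genes differed from each other was not tested. Capitals mark matches on either strand to AGGTCA (a nuclear receptor core site), CCAAT and GGGCGG (a GC box). The other Cav1 entry held none of the 3.
Cd36, chr5:17835847-17836146 (- strand): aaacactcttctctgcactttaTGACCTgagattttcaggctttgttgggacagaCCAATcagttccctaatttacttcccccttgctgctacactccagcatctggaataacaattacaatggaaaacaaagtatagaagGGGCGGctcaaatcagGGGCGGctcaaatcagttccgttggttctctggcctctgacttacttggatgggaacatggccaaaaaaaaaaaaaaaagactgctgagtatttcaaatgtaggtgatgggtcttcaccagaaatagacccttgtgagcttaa
Cav2, chr6:17280935-17281234 (+ strand): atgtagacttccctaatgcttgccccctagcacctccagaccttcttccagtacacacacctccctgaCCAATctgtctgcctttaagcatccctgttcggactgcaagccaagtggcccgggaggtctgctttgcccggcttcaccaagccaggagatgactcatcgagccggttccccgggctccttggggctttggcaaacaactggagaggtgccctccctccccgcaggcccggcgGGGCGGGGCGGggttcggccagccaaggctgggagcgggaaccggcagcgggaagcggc
Cav1, chr6:17306085-17306384 (+ strand): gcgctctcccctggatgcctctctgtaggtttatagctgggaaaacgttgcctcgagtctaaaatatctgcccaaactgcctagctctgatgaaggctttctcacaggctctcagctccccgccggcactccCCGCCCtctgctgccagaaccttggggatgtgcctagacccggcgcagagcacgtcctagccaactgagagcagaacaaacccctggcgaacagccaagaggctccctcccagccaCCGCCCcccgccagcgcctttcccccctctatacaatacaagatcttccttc

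Among these 7 genes, AGGTCA was found in the window of Cd36 and of no other, CCAAT in windows of 6 genes and GGGCGG in windows of 6. Counted by entry, AGGTCA was in 1 of the 12 entries of these genes, CCAAT in 8 and GGGCGG in 8. Over 32851 promoter entries, 16.3% held AGGTCA, 37.4% CCAAT and 35.7% GGGCGG. These shares are by entry and are not to be set against the counts by gene, where any entry of a gene counts. The entries of Cavin1 almost coincide, so the 12 are not independent, and a difference from all entries was not tested. A match is only a run of letters, and none of the assays used here bears on whether a factor was bound.

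The 10 genes fell into different places among the cell classes. Slc27a1, Acsl1 and Cav1 were highest in adipocyte-like nuclei in 9 of 9 libraries, and Lpl in 8 of 9, with macrophage-like nuclei ahead in HHC. Fabp5 was highest in endothelial-like nuclei in 9 of 9 libraries, Cavin1 in 7, Cd36, Cav2 and Cavin2 in 6 and Fabp4 in 5. For Cd36, the medians over the libraries were 2726 CPM in endothelial-like, 2647 CPM in macrophage-like and 2617 CPM in adipocyte-like nuclei, and the ranges of the 3 classes overlapped. Acsl1 had a second place in epithelial-like nuclei, at a median of 780.1 CPM over 3 libraries, with 118 CPM in endothelial-like nuclei.

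Free RNA of lysed cells is captured with every nucleus, so each class was set against lymphoid nuclei (T, NK or B cell-like) of the same library, which should lack most of these transcripts. In adipocyte-like nuclei, Lpl, Cd36, Slc27a1, Acsl1 and Cav1 lay above the lymphoid level, with intervals off 1, in 9 of 9 libraries, Fabp4, Cav2 and Cavin2 in 8 and Cavin1 in 4. Fabp5 did so in 0 of 9, and its level in adipocyte-like nuclei was not told apart from background by this measure. In endothelial-like nuclei, Cd36, Fabp4, Cav1, Cavin1 and Cavin2 were above in 9 of 9 libraries, and Acsl1 in 1 and Slc27a1 in 0. In macrophage-like nuclei, Cd36 was above in 8 and Lpl in 6, and Fabp4, Cav1, Cavin1 and Cavin2 were lower than in lymphoid nuclei in all 9 libraries. In progenitor-like nuclei 1 of the 10, Cavin2, was above with an interval off 1, in 1 of 9 libraries. In the CC library the lymphoid class had only 36 nuclei and held 3225 CPM of Fabp4, more than the 2085 CPM of the adipocyte-like nuclei. The lymphoid level is itself uneven, since lymphocytes can express Fabp5.

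The first comparison asked how the genes stood in adipocyte-like nuclei under HFD. Fabp4 and Cav2 were higher than in chow, and the other 8 genes did not pass the test. Fabp4 was at 1853, 2085 and 2234 CPM in C, CC and CCC, and at 5644 and 6287 CPM in H and HH. The HFD libraries lay far above the chow libraries, which differed little among themselves. With the libraries of a diet state as replicates, Fabp4 rose 2.83-fold under HFD (SE 0.34 on the log2 scale, adjusted p = 0.0348) in edgeR's quasi-likelihood test. Cav2, the partner caveolin, was at 74.0, 80.6 and 99.3 CPM in chow and 139.9 and 147 CPM in HFD, and rose by 0.73 ± 0.18 (SE, adjusted p = 0.0411) on the log2 scale, 1.66-fold. These 2 of 10 calls stand beside 970 of 7201 genes tested, 13.5%, that were called in the same fit, and all 10 genes passed the filter on low counts. Both calls were lost without H, without HH and without CC, at log2 values between 1.42 and 1.61 for Fabp4 and between 0.69 and 0.79 for Cav2, and Fabp4 was also lost without CCC. Without C, 4 genes passed (Fabp4, Acsl1, Cav2 and Cavin2), and up to 18.6% of all genes passed when a library was left out. With the label prefix as a term of the fit, Fabp4 (1.58, adjusted p = 0.0771) and Cav2 (0.84, adjusted p = 0.0531) missed the threshold, and Fabp5 and Cavin2 passed it.

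Of the uptake genes, Lpl, Cd36, Slc27a1, Acsl1 and Fabp5 did not pass in adipocyte-like nuclei. Fabp5 was at 1.91, 14.3 and 25.6 CPM in chow and 77.9 and 54.2 CPM in H and HH, with 2.27 ± 0.98 (SE, adjusted p = 0.149). These levels were not told apart from background. Lpl stood at 1610.1, 1683 and 1608 CPM in the chow libraries and 2231 and 1775 CPM in H and HH, a fitted log2 difference of 0.25 ± 0.22 (SE, adjusted p = 0.457). Cd36 stood at 2676, 2282 and 2001 CPM and 3196 and 2989.6 CPM, with 0.36 ± 0.25 (SE, adjusted p = 0.331). Slc27a1 was at 790.4, 669 and 458 CPM in C, CC and CCC and at 937 and 825 CPM under HFD. Acsl1, the acyl-CoA synthetase, spread widely in chow, at 2476, 1534 and 879 CPM, against 2979 and 3202 CPM in H and HH. Its difference of 0.86 ± 0.43 (SE, adjusted p = 0.205) did not pass. It was lowest in CCC, whose adipocyte-like nuclei were shallow (median 2588 UMIs), and a link of its level to depth was not tested. H and HH both exceeded all 3 chow libraries for 8 of the 10 genes, all but Cav1 and Cavin1. Of all genes tested, 30.5% did so. Fabp5 is counted among the 8, but it reached the mean of 20 CPM needed for this fit only through the HFD libraries, where it was higher.

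**Figure D1:**
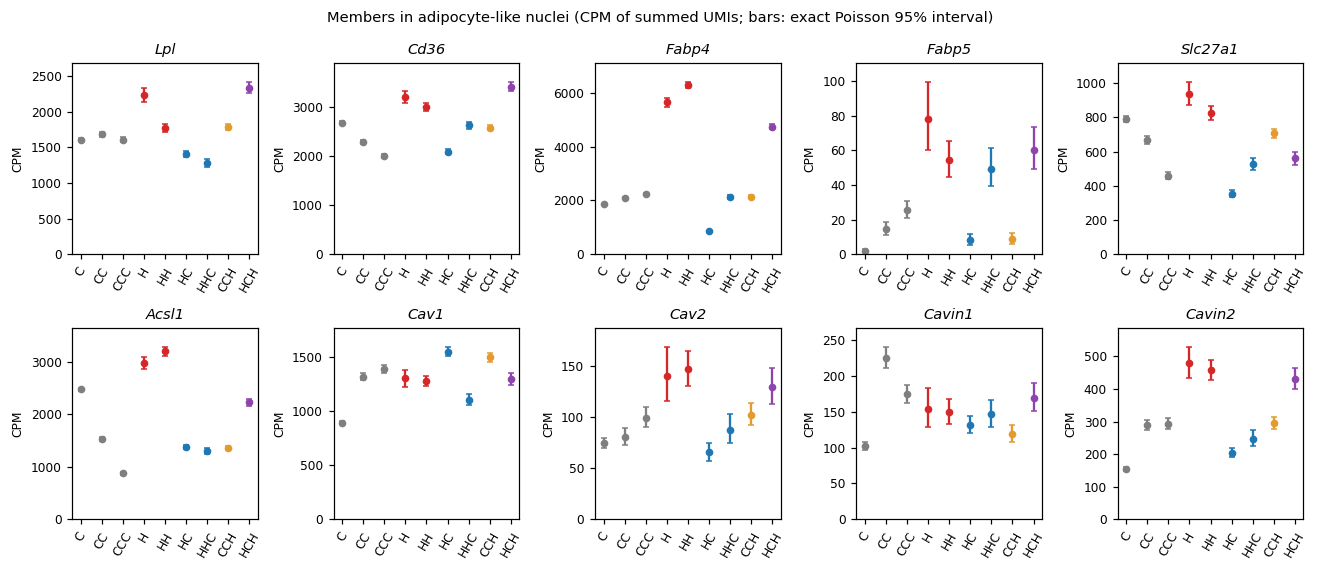
CPM of each gene in adipocyte-like nuclei, 1 panel per gene and 1 point per library, with exact Poisson 95% intervals (chow grey, HFD red, weight loss blue, CCH orange, HCH purple). Lpl, Cd36, Fabp4, Fabp5, Cav2 and Cavin2 stand higher in each of H, HH and HCH than in the 3 chow libraries. Slc27a1, Acsl1, Cav1 and Cavin1 do not.

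Of the caveola genes, Cav2 passed in adipocyte-like nuclei and Cav1, Cavin1 and Cavin2 did not. Cav1, the main caveolin, was at 890.5, 1313 and 1387 CPM in chow and 1299 and 1275 CPM in HFD, with a fitted difference of 0.07 ± 0.28 (SE, adjusted p = 0.873). Cavin1, the coat protein, was at 102, 226 and 175 CPM and 155 and 150.1 CPM, inside the range of the chow libraries. Cavin2 was at 154, 289 and 293 CPM and 478 and 457 CPM, with 0.90 ± 0.27 (SE, adjusted p = 0.0678). C was the lowest chow library for all 4 caveola genes, and CC had 2.22 times the Cavin1 level and 1.88 times the Cavin2 level of C.

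Between single libraries, at least 2-fold higher levels were seen for 3 of 10 genes in H against C, beside 21.1% of 7117 genes compared. The ratio was 3.05 (95% interval 2.95 to 3.14) for Fabp4 and 3.11 (95% interval 2.78 to 3.47) for Cavin2. The third gene was Fabp5, whose adipocyte-like level was not told apart from background. It reached the mean of 20 CPM needed for this count only through the HFD library, in this pair and in the next. None of the 10 was 2-fold lower, beside 5.8% of genes. In HH against CC the higher genes were Fabp4 (3.02), Fabp5 and Acsl1 (2.09), beside 20.4% of 7337 genes, and again none was 2-fold lower, beside 7.05%. Against C, which shares its prefix, HH had 3.39 times the Fabp4, 2.97 times the Cavin2, 1.98 times the Cav2 and 1.29 times the Acsl1 level. The median log2 ratio of the 10 genes was 0.57 in H against C and 0.53 in HH against CC, and that of all genes compared 0.17 and 0.10.

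After WL, no gene of the 10 passed the same test in adipocyte-like nuclei. edgeR called 0 of 7201 genes, 0.0%, although 517 had an unadjusted p under 0.05, and DESeq2 called 74 genes but none of the 10, with an adjusted p of 0.881 for Fabp4. Fabp4 was at 847 CPM in HC and 2114 CPM in HHC, the first below and the second inside the chow range. Lpl was the only gene of the 10 with both WL libraries, 1405 and 1275 CPM, below all 3 chow libraries, as 12.6% of genes were, and its fitted difference was -0.29 ± 0.23 (SE, adjusted p = 0.764). Acsl1 was at 1370.1 and 1299 CPM, Cd36 at 2081 and 2617 CPM, Slc27a1 at 353 and 528 CPM and Cav1 at 1544 and 1099 CPM in HC and HHC. The largest fitted difference other than that of Fabp5 was Slc27a1, at -0.58 ± 0.31 (SE, adjusted p = 0.717).

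In HC against CC, Fabp4 was at 0.406 (95% interval 0.389 to 0.423) of the control level and was the 1 gene of 9 compared that was at least 2-fold lower, beside 2.16% of 6429 genes. None was 2-fold higher, beside 2.24%. The lymphoid nuclei of CC held 3225 CPM of Fabp4, more than the 2085 CPM of its adipocyte-like nuclei. Fabp4 also stood at 0.220, 0.198 and 0.448 of the CC level in progenitor-like, macrophage-like and endothelial-like nuclei of HC. The part of free RNA in the Fabp4 ratio was not tested. Slc27a1 and Cavin1 stood at 0.529 and 0.585 of the CC level. In HHC against CCC, no gene of the 10 passed 2-fold in either direction, beside 3.83% of 7385 genes lower and 3.75% higher. There Lpl and Cav1 stood at 0.793 and 0.793, and Acsl1 and Cd36 at 1.48 and 1.31, of the CCC level. Macrophage free RNA was also subtracted in proportion to its tracer genes. The level left was then divided by the fraction not taken as macrophage RNA, which raises genes scarce in macrophage-like nuclei. After this rescaling, the log2 ratio of Cav1 went from -0.34 to 0.05 and that of Lpl from -0.33 to -0.70. Each of these rests on 1 library a group.

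The renewed HFD was compared in mice with and without an earlier HFD period. In HCH against CCH, Fabp4 was at 4748 CPM against 2139.5 CPM, a ratio of 2.22 (95% interval 2.15 to 2.29). It also stood at 3.13, 3.22 and 3.16 times the CCH level in progenitor-like, macrophage-like and endothelial-like nuclei of HCH. Lymphoid nuclei held 1940 CPM of Fabp4 in HCH and 818 CPM in CCH. The part of free RNA in this Fabp4 ratio was not tested. Fabp5, again not told apart from background and past 20 CPM only through HCH, had a ratio of 7.10. These 2 of 10 genes passed 2-fold, beside 9.58% of 6901 genes, and none was 2-fold lower, beside 1.32%. Acsl1 (1.65), Cavin2 (1.46), Cavin1 (1.42), Cd36 (1.32), Lpl (1.31) and Cav2 (1.26) were above CCH with intervals off 1, while Slc27a1 (0.792) and Cav1 (0.864) were below it. Set against CC, which differs in prefix, CCH had 1.03 times the Fabp4, 1.06 times the Lpl, 0.882 times the Acsl1, 0.529 times the Cavin1 and 1.02 times the Cavin2 level. Against C, of the same prefix, these were 1.15, 1.11, 0.546, 1.17 and 1.92.

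The levels of Fabp4, Fabp5 and Cavin2 stand beside another difference between the libraries. Transcripts of 83 ribosomal protein genes, which are short and abundant in the cytosol, summed to 1431, 2568 and 4428 CPM in the adipocyte-like nuclei of C, CC and CCC, 6517 and 6627 CPM in H and HH, 2167 and 5194 CPM in HC and HHC, 1981 CPM in CCH and 8758 CPM in HCH. H, HH and HCH were thus highest in this sum as well as in Fabp4. In HHC the sum exceeded that of every chow library while Fabp4 stood at the chow level. The summed macrophage tracers, 6 of 6 detected, were also higher in the adipocyte-like class of H and HH (838 and 1100.0 CPM) than of C, CC and CCC (37.8, 58.4 and 119 CPM), and higher in HCH (962 CPM) than in CCH (103 CPM). They stood at 113 and 631 CPM in HC and HHC, the second above every chow library. With macrophage free RNA subtracted in proportion to these tracers, the log2 ratio of Fabp4 was larger for H over C, HH over CC (2.05) and HCH over CCH (1.62) than without it (1.61, 1.59 and 1.15). Cd36 went from 0.26 to -0.09 in H against C and from 0.39 to 0.04 in HHC against CCC, and Slc27a1 and Cav1 turned above CCH in HCH (0.12 and 0.35). The part of the ribosomal protein sum in the results was not tested.

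**Figure D2:**
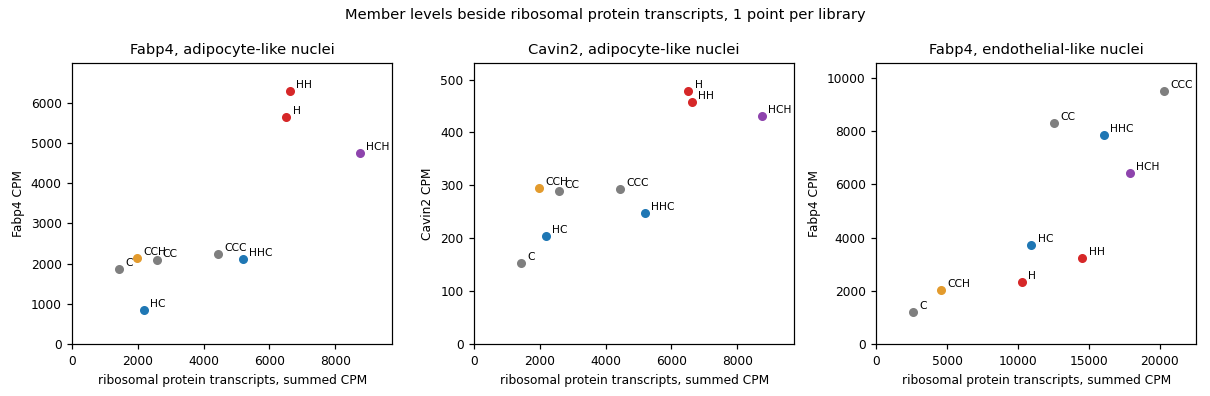
Level of Fabp4 and Cavin2 in adipocyte-like nuclei and of Fabp4 in endothelial-like nuclei (CPM, vertical) against the summed CPM of 83 ribosomal protein genes in the same nuclei (horizontal), 1 labelled point per library. H, HH and HCH lie at the upper right in both adipocyte-like panels, and in endothelial-like nuclei C has the lowest and CCC the highest value on both axes.

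In endothelial-like nuclei, the cells across which lipase-released fatty acids pass, 1 of 10 genes passed under HFD, and 251 of 7763 genes (3.23%) did. That gene was Acsl1, at 169, 317 and 214 CPM in chow and 53.8 and 59.0 CPM in HFD, which fell by 2.09 ± 0.40 (SE) on the log2 scale (adjusted p = 0.0315). Its level was above that of lymphoid nuclei in 4 of 9 libraries, with an interval off 1 in 1 of them, and the summed adipocyte tracers, 7 of 7 detected in every library, fell alongside it in endothelial-like nuclei, from 784, 3368 and 1847 CPM in chow to 258 and 336 CPM in HFD. The part of free adipocyte RNA in this call was not tested. The call was lost without CC, without CCC, without H and without HH, and 5 genes passed without C (Fabp4, Slc27a1, Acsl1, Cavin1 and Cavin2, all lower). Up to 10.7% of all genes passed when a library was left out. With the prefix as a term, Acsl1 (-1.60, adjusted p = 0.0413) and Fabp5 (3.46, adjusted p = 0.0243) passed.

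Cd36 was well above background in endothelial-like nuclei and varied from 2238 CPM in HC to 4577 CPM in H, with a fitted HFD difference of 0.32 ± 0.40 (SE, adjusted p = 0.830). Fabp4 varied widely among the chow libraries of this class, from 1197 CPM in C to 8312 CPM in CC and 9501 CPM in CCC, against 2331 and 3219 CPM in H and HH, 3720.0 and 7858 CPM in HC and HHC, 2035 CPM in CCH and 6436 CPM in HCH. Both HFD values lay between that of C and those of CC and CCC. The fitted difference of -1.23 ± 0.82 (SE, adjusted p = 0.587) turned to 1.20 (adjusted p = 0.225) with the prefix in the fit. The ribosomal protein sum of endothelial-like nuclei was 2611, 12562 and 20301 CPM in C, CC and CCC and 10281 and 14540.0 CPM in H and HH. It had the same order as Fabp4 within the chow libraries, whereas HH had a higher sum than CC with less Fabp4. Cavin1 was at 193, 830.2 and 656 CPM in chow and 126 and 152 CPM in HFD, below all 3, as 12.3% of genes were, with -2.05 ± 0.57 (SE, adjusted p = 0.105). Cav1 was steadier, between 527 CPM (C) and 964 CPM (HCH). After WL no gene of the 10 passed in endothelial-like nuclei, beside 5 of 7763 genes, 0.0644%. Slc27a1 had the lowest adjusted p of the 10 there, 0.308, with 521 genes at an unadjusted p under 0.05.

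In macrophage-like nuclei, 3 uptake genes rose under HFD and 4 genes fell, beside 30.6% of 7271 genes called. Cd36, a receptor with which macrophages also take up oxidised lipoproteins, was at 1122, 1537 and 1198 CPM in chow and 4536 and 3134 CPM in H and HH, without overlap, and rose by 1.46 ± 0.24 (SE, adjusted p = 0.00561). Both HFD libraries exceeded the 3 chow libraries in 35.2% of all genes tested. The call for Cd36 held in 16 of 16 alternatives. Lpl was at 314, 812 and 463 CPM and 1569.7 and 1118 CPM and rose by 1.22 ± 0.39 (SE, adjusted p = 0.0494). Lymphoid nuclei held 491, 1630 and 411 CPM of Cd36 in C, CC and CCC and 1953 and 1253 CPM in H and HH. Of Lpl they held 298, 1382 and 342 CPM and 961 and 739 CPM. The part of free RNA in the rises of Cd36 and Lpl was not tested. Fabp5 was at 1.19, 18.5 and 19.9 CPM and 79.0 and 90.1 CPM and rose by 2.92 ± 0.91 (SE, adjusted p = 0.0455). It was under 20 CPM in each chow library. It therefore reached the mean of 20 CPM needed for the fit only through the HFD and WL libraries, where it was higher. Without H or without HH, Cd36 was the only call left, and with the prefix as a term only Lpl, Cd36 and Fabp5 passed. Fabp5 exceeded the lymphoid level, with an interval off 1, in 1 of 9 libraries, and the ribosomal protein sum of macrophage-like nuclei was 1791, 3608 and 3394 CPM in chow against 7117 and 8572 CPM in H and HH. What part of the Fabp5 change goes with that sum was not tested.

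The 4 genes that fell in macrophage-like nuclei were Acsl1, Cav1, Cavin1 and Cavin2, with log2 differences of -1.76, -2.58, -3.00 and -2.75 (adjusted p from 0.0177 to 0.0263). Cav1 was at 73.5, 326 and 122 CPM in chow and 23.8 and 39.2 CPM in HFD. Cav1, Cavin1 and Cavin2 were lower in these nuclei than in lymphoid nuclei of the same library in 9 of 9 libraries, and their levels in macrophage-like nuclei are read as background. Acsl1 was above the lymphoid level in 5 of 9 libraries, in none of them with an interval off 1. The summed adipocyte tracers in macrophage-like nuclei were 552, 1898 and 568 CPM in chow and 57.7 and 132 CPM in HFD and so moved the same way. The part of free adipocyte RNA in these 4 calls was not tested.

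After WL, Cd36 alone passed in macrophage-like nuclei, at 2647 and 3409 CPM in HC and HHC, a rise of 1.20 ± 0.24 (SE, adjusted p = 0.0193), beside 9.85% of 7271 genes. It held in 12 of 16 alternatives and was lost with the prefix as a term (1.10, adjusted p = 0.0613). Lpl was at 1192 and 1582 CPM, above all 3 chow libraries, as 19.4% of genes were, with 1.34 ± 0.39 (SE, adjusted p = 0.0754). Slc27a1 was at 87.7 and 121 CPM, below all 3, as 17.3% of genes were, with -0.94 ± 0.26 (SE, adjusted p = 0.0659). In HCH, Cd36 and Lpl stood at 2968 and 1425 CPM, 2.94 and 3.63 times the CCH level. In CCH they stood at 1009 and 393 CPM, Cd36 below all 3 chow libraries and Lpl within their range. Lymphoid nuclei of HC, HHC, CCH and HCH held 844, 1512, 451 and 1347 CPM of Cd36. Of Lpl they held 624, 1062, 621 and 1244 CPM. The part of free RNA in these Cd36 and Lpl differences was not tested.

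**Figure D3:**
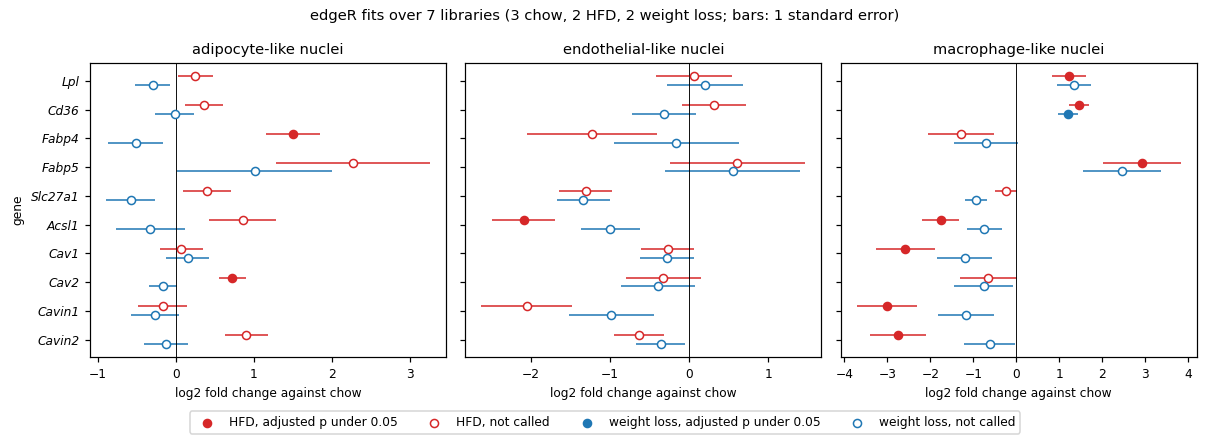
Log2 fold change against chow (horizontal, 1 standard error) of the 10 genes in edgeR fits of adipocyte-like, endothelial-like and macrophage-like nuclei, HFD in red and weight loss in blue, with filled points at an adjusted p under 0.05. In macrophage-like nuclei Lpl, Cd36 and Fabp5 lie to the right of 0 under HFD and Acsl1, Cav1, Cavin1 and Cavin2 to the left, and the only filled weight loss point is Cd36.

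The makeup of the macrophage-like nuclei differed between the libraries. Nuclei with markers of lipid-associated macrophages (LAM-like) numbered 9, 1 and 6 in C, CC and CCC, 327 and 235 in H and HH, 162 and 342 in HC and HHC, 14 in CCH and 151 in HCH, while nuclei with markers of perivascular macrophages (PVM-like) numbered from 163 to 983. The marker lists of both kinds hold none of the 10 genes. In the 5 libraries with at least 20 nuclei of each kind, Lpl, Cd36, Fabp5, Slc27a1 and Cav2 were called higher in LAM-like than in PVM-like nuclei, 5 of 10 genes beside 45.5% of 7264 genes called, and none of the 10 was called lower. Lpl was at 2687 and 1989.7 CPM in LAM-like nuclei of H and HH, 2020.3 and 3319.9 CPM of HC and HHC and 2462 CPM of HCH, and at 556 and 526, 420.0 and 645 and 797 CPM in the PVM-like nuclei. The kinds did not overlap, and the difference with library as a block was 2.12 ± 0.13 (SE, adjusted p = 7.12e-08). Cd36 was at 8613 and 5956 CPM (H and HH), 4326 and 6681 CPM (HC and HHC) and 5737 CPM (HCH) in LAM-like nuclei, and between 1167 and 2022 CPM in PVM-like nuclei, a difference of 1.87 ± 0.12 (SE, adjusted p = 9.58e-08).

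Fabp5 (1.92) and Slc27a1 (0.80) were higher in LAM-like than in PVM-like nuclei of all 5 libraries, and the calls for Lpl, Cd36, Fabp5 and Slc27a1 held in 11 of 11 alternatives. That for Cav2, 0.60 ± 0.22 (SE, adjusted p = 0.0410), held in 4 and was lost without the library block. Cav2 was not higher in each library, since its ratio was 0.950 in HC. In HHC it was 1.06, and H (2.77) was the only library of the 5 with an interval off 1. Fabp4 (0.29 ± 0.14 (SE, adjusted p = 0.126)), Acsl1, Cav1, Cavin1 and Cavin2 did not pass. LAM-like nuclei were the deeper ones, with median UMIs from 3196 to 4502 against 2292 to 4097 in PVM-like nuclei of these libraries. Lpl, Cd36 and Slc27a1 of LAM-like nuclei lay above the lymphoid level in 5 of 5 libraries, whereas Lpl of PVM-like nuclei was below it, with intervals off 1, in 8 of 9. Set against adipocyte-like nuclei of the same library, LAM-like nuclei had 2.70, 1.99, 2.08, 2.55 and 1.68 times the Cd36 level and 1.20, 1.12, 1.44, 2.60 and 1.05 times the Lpl level in H, HH, HC, HHC and HCH, but at most 0.41 times the level of Slc27a1.

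PVM-like nuclei alone were also compared between libraries. Cd36 was at 1013, 1513 and 1289 CPM in C, CC and CCC and 1995 and 1714 CPM in H and HH, 1.97 times the C level in H and 1.13 times the CC level in HH. The lymphoid nuclei of C and H held 491 and 1953 CPM of Cd36, so that the PVM-like value in H was close to background, and PVM-like nuclei were above the lymphoid level with an interval off 1 in 7 of 9 libraries, all but CC and H. In WL it was 0.772 times the control level in HC and 1.42 times in HHC. All macrophage-like nuclei gave 4.04, 2.04, 1.72 and 2.85 in the same pairs, each larger than in PVM-like nuclei, and the direction differed in HC against CC. Lpl in PVM-like nuclei stood at 2.33 times the C level in H and 2.71 times the CCC level in HHC, but at 0.696 of the CC level in HH and 0.555 in HC, where all macrophage-like nuclei gave 1.38 and 1.47. Against C, HH had 2.20 times the Lpl and 1.69 times the Cd36 level in PVM-like nuclei. PVM-like Lpl was above the lymphoid level in 0 of 9 libraries and below it, with intervals off 1, in 8. Lymphoid nuclei held 298 and 961 CPM of Lpl in C and H, and 342 and 1062 CPM in CCC and HHC. The part of free RNA in the PVM-like Lpl ratios was not tested. The PVM-like nuclei of CC had the most Lpl and Cd36 of the 3 chow libraries. How much of the macrophage result comes with the change in kinds was not tested.

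**Figure D4:**
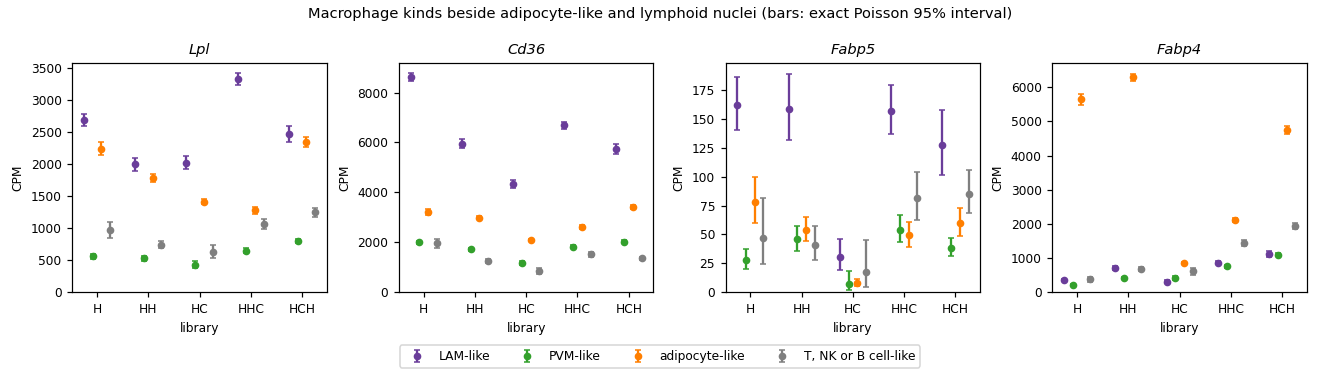
CPM of Lpl, Cd36, Fabp5 and Fabp4 in LAM-like, PVM-like, adipocyte-like and lymphoid nuclei of the 5 libraries with LAM-like nuclei, with exact Poisson 95% intervals. Cd36 is highest in LAM-like nuclei in each library, as is Lpl except that its intervals in LAM-like and adipocyte-like nuclei overlap in HCH, whereas Fabp4 is highest in adipocyte-like nuclei in each library.

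The classes in which the UMIs of the genes were found differed between the diet groups. Adipocyte-like nuclei, here with every nucleus placed by its whole profile, made up 23.8% of nuclei in C, 26.9% in CC and 47.1% in CCC, 2.06% in H and 3.69% in HH, and 17.1% in HC and 4.80% in HHC, and macrophage-like nuclei 17.3% in C and 61.8% in H. Of the Lpl UMIs, 76.4% were in adipocyte-like nuclei in C but 5.11% in H, where 78.2% were in macrophage-like nuclei. In HC the shares were 34.4% and 33.9%, in HHC 6.51% and 57.3%, and in HCH 9.69% and 54.4%. For Cd36 the share was 68.2% in adipocyte-like nuclei of C, 2.86% in H and 7.01% in HHC.

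Adipocyte-like nuclei held from 47.6% (HHC) to 89.4% (C) of the Acsl1 UMIs, and 62.1% in H, where those nuclei were 2.06% of all. Of Cav1, 75.5% were in adipocyte-like nuclei in CCC and 29.1% in HCH. Fabp4 was spread over several classes. Its largest share was in adipocyte-like nuclei in C (71.9%), CC, HH and CCH, in endothelial-like nuclei in CCC (45.2%), HC and HHC, and in macrophage-like nuclei in H (38.8%) and HCH (30.7%). In HHC the endothelial-like and macrophage-like shares were close, 30.8% and 30.1%, beside 7.88% in adipocyte-like nuclei. Over the 90 pairs of gene and library, the class with most UMIs was the adipocyte-like class in 53, the macrophage-like class in 27, the endothelial-like class in 7 and the progenitor-like class in 3. With the gated nuclei alone these numbers were 64, 19, 3 and 4. Fewer nuclei of a class and less RNA per nucleus cannot be told apart in such shares, and they cannot be read as shares of protein or of lipid uptake. Free RNA is counted in them. Fabp4, Cav1, Cavin1 and Cavin2 of macrophage-like nuclei were above the lymphoid level in 0 of 9 libraries. In progenitor-like nuclei only Cavin2 was above it with an interval off 1, in 1 of 9. The part of free RNA in the shares was not tested.

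**Figure D5:**
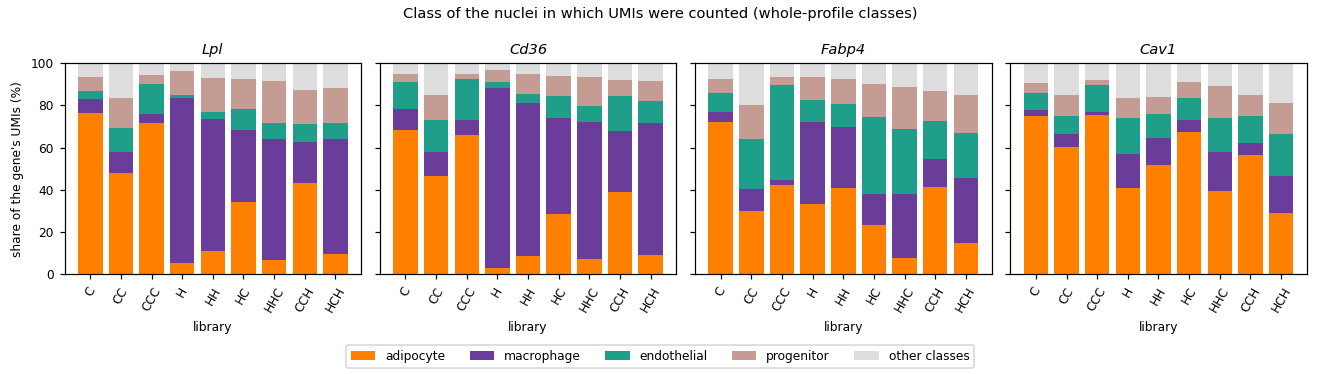
Share of the UMIs of Lpl, Cd36, Fabp4 and Cav1 (percent, vertical) found in adipocyte, macrophage, endothelial, progenitor and other nuclei of each library, with every nucleus placed by its whole profile. The orange adipocyte part of Lpl drops from 76.4% in C to 5.11% in H, and that of Cav1 is lowest in HCH, at 29.1%.

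Other genes of the pathway were taken from a list of 23. In adipocyte-like nuclei 13 of them could be tested and 5 rose under HFD, none fell, beside the 13.5% of all genes called in that fit, and the median log2 difference was 0.14 over the 13 and -0.04 over all genes tested. The risen genes were Angptl4 (1.79) and Angptl8 (2.95), inhibitors of lipoprotein lipase, Vldlr (1.04), a receptor for triglyceride-rich lipoproteins, Dbi (1.52), which binds acyl-CoA, and the cavin gene Cavin3 (2.21). The ribosomal protein sum and the macrophage tracers given above were higher in the same nuclei of H and HH, and their part in these calls was not tested. After WL 0 of the 13 passed. In endothelial-like nuclei 0 of 13 passed under HFD or after WL, and Gpihbp1, which anchors the lipase to the capillary wall, was at 76.7, 282 and 390.1 CPM in C, CC and CCC, 239.6 and 236 CPM in H and HH and 116 and 252 CPM in HC and HHC, with overlap.

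In macrophage-like nuclei 11 of the 23 could be tested. Under HFD Sel1l (0.56), needed for secretion of the lipase, Angptl4 (1.23) and the lipoprotein receptor Lrp1 (1.01) rose, and the caveola-associated Ehd2 (-2.82) and Pacsin2 (-1.05) fell, beside 30.6% of all genes called. The adipocyte tracers fell in the same nuclei, as given above, and their part in the falls of Ehd2 and Pacsin2 was not tested. After WL Lrp1 (1.56) alone rose, 1 of 11 beside 9.85%. Between LAM-like and PVM-like nuclei, with 10 tested, Sel1l (0.68) and Lrp1 (1.87) were higher and Pacsin2 (-0.61) lower in LAM-like nuclei, 3 of 10 beside 45.5% of all genes called.

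Over 73 points of 12 classes and up to 9 libraries, each with at least 50 nuclei, the gene most like Lpl among 12379 genes was Cd36 (Spearman's rho 0.85), followed by Reep5 (0.76) and Trf (0.73). After Lpl, Cd36 was most like Dhrs3 (0.73) and Cebpg (0.72). Dst (0.90) and Palmd (0.89) were among the genes most like Cav1. Among the 10 genes, Cav1 ran with Cavin2 (0.87) and Cavin1 (0.86), and Cavin1 with Cavin2 (0.81), while Slc27a1 and Acsl1 gave 0.63. The points share libraries, free RNA and depth and are not independent, so these values are descriptions.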

How the data were processed

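The authors aligned the reads to mm10 with Cell Ranger 6.1.2 and used Seurat 4.1.0, per the submitters' processing notes, and deposited UMI counts per gene and barcode, 1 matrix per library (22599619 to 66615262 UMIs). Their methods keep nuclei with 500 to 3000 genes and at most 40000 UMIs, and the same limits were applied to the counts deposited. A nucleus received a class when it held at least 3 markers of it beyond the level of free RNA and 2 times as many as of any other class. Markers of 12 classes were listed first and this rule was set after the counts were seen. Nuclei with markers of 2 classes (3.45% to 6.02% of kept nuclei) were set apart, no doublet caller was run, and free RNA was not removed. Placing nuclei by whole profile, without the 10 genes, gave the same class for 98.4% of gated nuclei. The profiles were summed from these same gated nuclei, so the agreement is no independent check of the classes. It does not cover the nuclei that the gate left without a class.

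Sums per library and class were tested in edgeR 4.0.16 (R 4.3.3) with quasi-likelihood, TMM factors and Benjamini-Hochberg adjustment over all genes, at 0.05, in 1 fit of 7 libraries with diet states as groups. The spread then includes age, diet length and prefix, and p-values measure the spread between pools. LAM-like and PVM-like nuclei were compared with the library as a block. Single libraries were compared by ratios with exact conditional 95% intervals, and genes with a mean under 20 CPM were left out of the 2-fold counts. DESeq2 1.42.0 was an alternative. Python 3.11.15, numpy 2.4.6, pandas 2.3.3 and scipy 1.17.1 did the rest. The fits were tested on simulated data. The 10 genes, the lists and the tests were chosen with earlier results of these data known. Named were the 10 genes, a list of 23 pathway genes and the 3 genes most like each of Lpl, Cd36 and Cav1, of which one for Cav1 is not reported here.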

Additional observations from a re-analysis of the deposited data

Results flagged for a closer look

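Genes whose ratio moved in opposite directions in 2 comparisons of the same kind, with both intervals off 0, were counted over 60 pairs of log2 ratios, and 13 such pairs were found. None of these differences was tested, since each ratio sets 1 library against 1 other.

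In adipocyte-like nuclei, Cavin1 was higher in H than in C (0.60) and lower in HH than in CC (-0.59). After weight loss, HC against CC and HHC against CCC went opposite ways for Cd36 (-0.13 and 0.39), Fabp5 (-0.86 and 0.95), Slc27a1 (-0.92 and 0.20), Acsl1 (-0.16 and 0.56) and Cav1 (0.23 and -0.34). With macrophage free RNA subtracted and the level left rescaled, these 5 pairs became -0.26 and 0.04, -1.50 and 0.02, -0.84 and 0.55, -0.08 and 0.95, and 0.33 and 0.05. Cav1 thus no longer went opposite ways. In endothelial-like nuclei, H against C and HH against CC went opposite ways for Lpl (1.02 and -0.29), Cd36 (0.75 and -0.25), Fabp4 (0.96 and -1.37) and Cav1 (0.43 and -0.55), and HC against CC and HHC against CCC for Lpl (-0.55 and 0.35). In macrophage-like nuclei, Cav2 gave 1.02 in H against C and -1.56 in HH against CC, and Fabp4 -2.34 in HC against CC and 0.27 in HHC against CCC. Set against C, of the same prefix, HH went the same way as H in each gene for which H and HH are named above, with log2 ratios of 0.56 for Cavin1 in adipocyte-like nuclei, 1.47 for Lpl, 0.25 for Cd36, 1.43 for Fabp4 and 0.21 for Cav1 in endothelial-like nuclei and 1.04 for Cav2 in macrophage-like nuclei. HH and CC differ in label prefix, and in CC the adipocyte tracers were higher in macrophage-like nuclei than in any other library (1898 CPM).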

How the results depend on the processing

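Of 1070 values of single genes in alternative fits, 983 kept their side of the threshold and 54 lost and 33 gained a call, and 48 turned their sign, none of them called in either fit. Of 410 alternative ratios, 308 moved by less than their interval, 102 by more, and 15 turned their sign, none of them past 2-fold either time. Each count of the 10 genes below is followed in parentheses by the share of all genes tested that passed under the same setting. The number called in adipocyte-like nuclei under HFD, 2 (13.5%), became 1 with no upper limit on genes (15.7%), 1 in nuclei with at least 2000 UMIs (14.2%) and 0 to 4 without a library each (0.0% to 18.6%). In endothelial-like nuclei the number under HFD, 1 (3.23%), became 3 in DESeq2 (5.84%), 3 with no filter (5.68%), 0 in nuclei with at least 2000 UMIs (0.0515%), 2 with the prefix as a term (6.66%) and 0 to 5 without a library each (0.0% to 10.7%), and after weight loss 0 (0.0644%) became 1 with no filter (1.46%). In macrophage-like nuclei the number under HFD, 7 (30.6%), became 3 with the prefix as a term (17.2%) and 1 to 6 without a library each (6.83% to 31.4%). After weight loss 1 (9.85%) became 3 in DESeq2 (14.4%), 6 with no filter (9.6%), 4 with no upper limit on genes (18.6%), 3 with the stricter gate (8.81%), 0 with the prefix as a term (6.67%) and 0 to 2 without a library each (4.49% to 10.6%). Where H or HH is left out, the other HFD library is assumed to vary like the other groups. At 1.5-fold, 5 genes were higher in H against C (32.5%), 5 higher (30.2%) and 1 lower (17%) in HH against CC, 3 lower in HC against CC (7.93%) and 1 higher in HHC against CCC (7.39%). Macrophage free RNA was also subtracted and the level left rescaled, which raises genes scarce in macrophage-like nuclei. With this, 5 genes were 2-fold higher when H was set against C (25.7%), 5 when HH was set against CC (23.4%) and 4 when HCH was set against CCH (14.9%). With no upper limit on genes, 2 were lower in HC against CC (1.87%) and 1 higher in HHC against CCC (3.69%), as was 1 with the stricter gate (3.81%). The cause of these changes was not tested.

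Diet groups of 1 library have no replicate numbers to pair. LAM-like and PVM-like nuclei share libraries, and of the calls between them that for Cav2 alone was lost without the replicate block. The prefix term, the limit of 2000 UMIs, the counts of 2-fold higher genes, the exclusion of single libraries from the LAM-like fit and class shares by the gate were chosen after seeing the data. With 192 adipocyte-like nuclei in H, genes of few UMIs such as Fabp5 are limited by counting.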
